A study of Homo sapiens with 8 samples.

Results

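Messenger RNA of 8 genes of the apoptosis machinery was examined in SUIT2, an established human PDA (pancreatic ductal adenocarcinoma) cell line: the death receptors *TNFRSF10A*, *TNFRSF10B* and *FAS*, the initiator caspases *CASP8* and *CASP9*, and the inhibitors *CFLAR*, *XIAP* and *BIRC3*. They were chosen by name as genes of this pathway, with earlier results of these data already known. Each of the 8 symbols matched 1 of the 25702 genes in the count data. All 8 passed the filter on low counts and were among the 14333 genes tested. The study used RNA-seq of these cells to ask which transcripts change when *EN1*, a homeobox transcription factor, is knocked down. Of 8 libraries, 4 were labelled shScr, the scramble control, 2 were labelled shEN1 #1 and 2 were labelled shEN1 #2, the names of 2 independent shRNA constructs against *EN1*. The constructs were in the lentiviral vector pLKO.1 puro per the study's methods, so every library came from cells that carried an shRNA, with no uninfected cells beside them. One cell line was used, no treatment with a death ligand or drug is named in the labels, and nothing says whether the libraries of a label came from separate cultures, so each p-value measures only the spread between these libraries, which may be technical.

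Apoptosis begins either at the cell surface or at the mitochondrion. Death receptors that bind their ligands recruit the adaptor FADD and procaspase-8, whereas cytochrome c released from mitochondria assembles with APAF1 into the apoptosome, which activates caspase-9. Both initiator caspases cleave executioner caspases, which take the cell apart. CFLAR, also named c-FLIP, resembles caspase-8 without its catalytic activity and competes for the receptor complex, XIAP binds and inhibits caspases directly, and BIRC3, also named cIAP2, is a ubiquitin ligase that acts at receptor complexes and in NF-κB signalling. Many of these steps are controlled by cleavage and by ubiquitin rather than by transcript level, and RNA counts do not show them.

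The libraries labelled shEN1 did not have less *EN1* RNA on average than those labelled shScr. In CPM, counts per 1000000 counts of a library whose size was corrected by the TMM method, *EN1* was 4.10, 4.50, 4.94 and 2.51 in shScr replicates 1 to 4, 5.77 and 5.41 in shEN1 #1, and 1.35 and 6.70 in shEN1 #2. The lowest levels were in 1 library of each label, shScr replicate 4 and shEN1 #2 replicate 1, and the highest was the other shEN1 #2 library. The log2 fold change of shEN1 against shScr was 0.26 ± 0.43 (SE, n = 4 against 4, edgeR adjusted p = 1.00). The targeted gene therefore goes against the labels, and each group below is named by what its libraries were labelled.

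Labels and overall similarity largely disagreed. Nearness was measured in log2 CPM over all genes tested. With shEN1 #1 and shEN1 #2 taken as separate labels, 0 of the 8 libraries had a nearest library of the same label. With both taken as shEN1, only shEN1 #1 replicate 2 did, being nearest to shEN1 #2 replicate 2. The closest pair was shScr replicate 4 with shEN1 #2 replicate 1. Next among mutual nearest pairs came shScr replicate 2 with shEN1 #2 replicate 2 and shScr replicate 3 with shEN1 #1 replicate 1. Depth was even, at 33423590 to 37810604 counts per library. Epithelial markers summed to 11446 to 14937 CPM in shScr and 11110 to 17630 CPM in shEN1, led by *KRT8*. Fibroblast markers summed to 1.27 to 4.22 CPM and 1.17 to 2.75 CPM, leukocyte markers to 0.107 to 1.05 CPM and 0.584 to 1.59 CPM, and endothelial markers to 0.316 to 0.603 CPM and 0.364 to 0.676 CPM. *COL1A2*, *DCN*, *LUM*, *PTPRC*, *CD3E*, *CDH5* and *KDR* were at 0 in every library, so the defining markers of the other cell types were at or near 0.

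Promoter sequence is shown for *BIRC3* and *CFLAR*, whose lowest levels fell in the same pair of libraries described below and which are known as transcriptional targets of NF-κB. *TNFRSF10A* was also lowest in that pair but had no promoter listed. The stretches are the 250 bases before the start of a RefSeq transcript (GRCh38.p14, a later build than that of the counts, plus strand), 5′ to 3′. Capitals mark matches on either strand to a loose 10-base form of the NF-κB consensus, GGRNNNYYCC. In it R is A or G, Y is C or T and N is any base. The *BIRC3* stretch is chr11:102317234-102317483. The *CFLAR* stretches are those of promoters 1 and 3 of 4 listed, chosen because they held a match, chr2:201118466-201118715 and chr2:201132531-201132780.
BIRC3: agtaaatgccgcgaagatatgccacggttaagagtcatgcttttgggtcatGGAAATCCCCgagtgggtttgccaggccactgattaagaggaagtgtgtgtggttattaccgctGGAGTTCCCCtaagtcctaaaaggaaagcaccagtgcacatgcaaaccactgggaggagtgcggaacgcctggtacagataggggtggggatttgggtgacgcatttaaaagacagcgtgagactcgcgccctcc
CFLAR promoter 1: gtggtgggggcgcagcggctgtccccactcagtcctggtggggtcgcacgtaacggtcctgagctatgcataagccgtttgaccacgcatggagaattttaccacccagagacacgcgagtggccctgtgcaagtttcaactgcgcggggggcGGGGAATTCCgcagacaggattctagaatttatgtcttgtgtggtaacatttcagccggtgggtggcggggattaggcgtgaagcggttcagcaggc
CFLAR promoter 3: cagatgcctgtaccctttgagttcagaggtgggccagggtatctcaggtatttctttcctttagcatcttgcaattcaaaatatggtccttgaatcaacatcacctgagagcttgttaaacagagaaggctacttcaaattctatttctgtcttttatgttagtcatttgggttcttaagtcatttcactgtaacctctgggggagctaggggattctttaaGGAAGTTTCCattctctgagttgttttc

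The *BIRC3* stretch held 2 matches, beginning 199 and 135 bases before the transcript start, and the *CFLAR* stretches held 1 each, beginning 97 and 28 bases before it. Overlapping matches were counted by their start. RefSeq promoters of 300 bases, running 250 before to 50 after the start, were listed for 6 of the 8 genes. Over them, *FAS* had a match in 2 of 3 promoters, *CASP8* in 2 of 3, *CFLAR* in 2 of 4, *XIAP* in 1 of 3, *BIRC3* in its only one and *CASP9* in 0 of 2. In all, 8 of these 16 promoters held a match, beside 32.6% of the 35116 RefSeq promoters of that length. The consensus is short and loose, promoters of 1 gene can share bases, and a match is a description of the letters, not a site.

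The 3 death receptors were all expressed. *TNFRSF10B* (Entrez 8795) encodes DR5, a receptor for the ligand TRAIL, and was at 108, 82.0, 96.7 and 142 CPM in shScr replicates 1 to 4, at 101 and 106 CPM in shEN1 #1 and at 144 and 89.0 CPM in shEN1 #2. Its levels were highest in shScr replicate 4 and shEN1 #2 replicate 1, and the groups overlapped. The mean was 107 ± 25.7 CPM (SD, n = 4) in shScr and 110 ± 23.7 CPM (SD, n = 4) in shEN1, a log2 fold change of 0.04 ± 0.19 (SE) with a 95% interval from -0.39 to 0.46. The sign turned without shScr replicate 2 (-0.07), without shScr replicate 3 (-0.0075) and without shEN1 #2 replicate 1 (-0.12).

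*FAS* (Entrez 355), the receptor of the Fas ligand, was at 21.2, 24.2, 15.5 and 29.4 CPM in shScr, at 21.6 and 20.4 CPM in shEN1 #1 and at 34.3 and 18.1 CPM in shEN1 #2. The highest levels were in the same pair of libraries as for *TNFRSF10B*, 1 of each label, and the replicates of shEN1 #2 lay at the opposite ends of their group. Means were 22.6 ± 5.82 CPM in shScr and 23.6 ± 7.29 CPM in shEN1 (SD, n = 4 each), a log2 fold change of 0.06 ± 0.24 (SE) with a 95% interval from -0.47 to 0.60. The value became -0.18 without shEN1 #2 replicate 1 and -0.08 without shScr replicate 3. Of the *FAS* exon bases, 25.7% overlap an antisense lncRNA and 10.7% overlap *ACTA2* on the other strand, and whether the counting used strand is not given in the sources used here.

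*TNFRSF10A* (Entrez 8797) encodes DR4, the other signalling TRAIL receptor. It was at 22.6, 19.8, 17.8 and 19.3 CPM in shScr, at 16.7 and 22.6 CPM in shEN1 #1 and at 20.9 and 24.4 CPM in shEN1 #2. The lowest level in each group was in shScr replicate 3 and in shEN1 #1 replicate 1. With means of 19.9 ± 1.99 CPM and 21.2 ± 3.29 CPM (SD, n = 4 each), the log2 fold change was 0.09 ± 0.15 (SE), with a 95% interval from -0.25 to 0.42. The count ratio of *TNFRSF10B* to *TNFRSF10A*, read across libraries only because the genes differ in length, ran from 3.65 in shEN1 #2 replicate 2 to 7.38 in shScr replicate 4. The ratio of *FAS* to *TNFRSF10B* ran from 0.160 to 0.296.

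**Figure D1:**
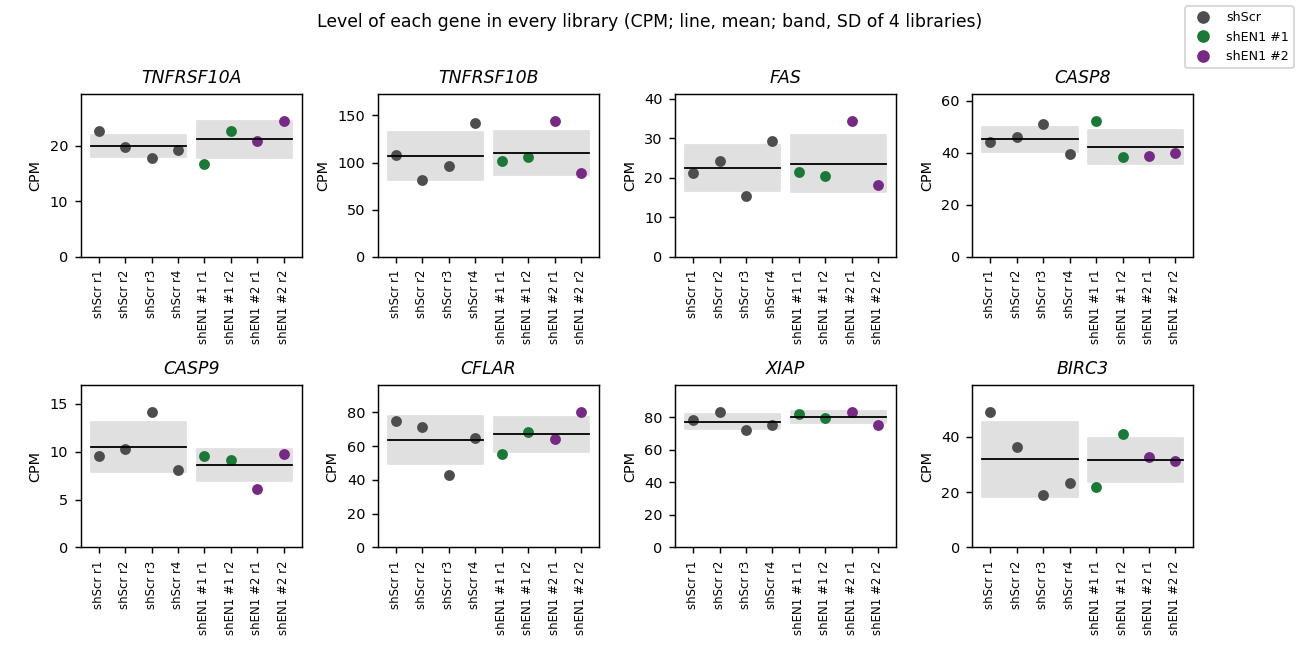
Levels of the 8 genes in each of the 8 libraries, in CPM on linear axes that start at 0. Points are libraries coloured by label, lines are group means and bands are 1 SD of the 4 libraries labelled shScr or shEN1; in every panel the points of the labels overlap.

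Of the initiator caspases, *CASP8* (Entrez 841), which acts at death receptors, was at 44.1, 46.2, 51.3 and 39.4 CPM in shScr, at 52.2 and 38.4 CPM in shEN1 #1 and at 38.7 and 40.0 CPM in shEN1 #2. The highest levels were in shScr replicate 3 and shEN1 #1 replicate 1, the pair in which *TNFRSF10A* was lowest. Means were 45.2 ± 4.90 CPM in shScr and 42.3 ± 6.64 CPM in shEN1 (SD, n = 4 each), and the log2 fold change was -0.10 ± 0.14 (SE) with a 95% interval from -0.40 to 0.21. In shEN1, 3 of the 4 libraries lay below the shScr mean, and the exception was the highest library of all.

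*CASP9* (Entrez 842), the caspase of the apoptosome, was at 9.52, 10.2, 14.1 and 8.06 CPM in shScr, at 9.50 and 9.09 CPM in shEN1 #1 and at 6.15 and 9.77 CPM in shEN1 #2. The lowest levels were in shScr replicate 4 and shEN1 #2 replicate 1, where *TNFRSF10B* and *FAS* were highest. Means were 10.5 ± 2.60 CPM and 8.63 ± 1.68 CPM (SD, n = 4 each). The log2 fold change of -0.28 ± 0.22 (SE), with a 95% interval from -0.78 to 0.21, was the farthest from 0 among the 8 genes, and its unadjusted p of 0.233 in edgeR was the lowest. All 4 shEN1 libraries lay below the shScr mean, but the groups overlapped, and the value shrank to -0.10 without shScr replicate 3 and to -0.15 without shEN1 #2 replicate 1.

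*CFLAR* (Entrez 8837), the competitor of caspase-8, was at 74.8, 71.1, 43.0 and 64.6 CPM in shScr, at 55.2 and 68.1 CPM in shEN1 #1 and at 64.2 and 80.3 CPM in shEN1 #2. The lowest levels were in shScr replicate 3 and shEN1 #1 replicate 1, the libraries with the highest *CASP8*. Means were 63.4 ± 14.2 CPM and 67.0 ± 10.4 CPM (SD, n = 4 each), a log2 fold change of 0.08 ± 0.18 (SE) with a 95% interval from -0.32 to 0.48. It was -0.07 without shScr replicate 3 and -0.02 without shEN1 #2 replicate 2. The count ratio of *CFLAR* to *CASP8* was 1.70, 1.54, 0.840 and 1.64 in shScr, 1.06 and 1.77 in shEN1 #1, and 1.66 and 2.01 in shEN1 #2. It was lowest in that same pair of libraries, and its group means of 1.43 ± 0.398 and 1.63 ± 0.406 (SD, n = 4 each) differed by less than their spread.

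*XIAP* (Entrez 331), the direct caspase inhibitor, was at 78.1, 82.8, 72.1 and 75.0 CPM in shScr, at 81.8 and 79.7 CPM in shEN1 #1 and at 83.3 and 75.4 CPM in shEN1 #2. It had the narrowest range, with the highest library 1.15 times the lowest. Its SD of log2 CPM within a label was 0.0747, and 1.07% of the genes tested had a lower one. Means were 77.0 ± 4.57 CPM and 80.0 ± 3.44 CPM (SD, n = 4 each), a log2 fold change of 0.06 ± 0.10 (SE) with a 95% interval from -0.16 to 0.27, the narrowest interval of the 8 genes. The count ratio of *XIAP* to *CASP9* ran from 5.10 in shScr replicate 3 to 13.5 in shEN1 #2 replicate 1.

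*BIRC3* (Entrez 330), which encodes cIAP2, was at 48.9, 36.1, 18.9 and 23.1 CPM in shScr. It was at 21.7 and 41.0 CPM in shEN1 #1 and at 32.6 and 31.3 CPM in shEN1 #2. It had the widest range, 2.59 times from lowest to highest, and that whole range lay among the 4 libraries labelled shScr. Means were 31.7 ± 13.6 CPM and 31.7 ± 7.89 CPM (SD, n = 4 each), and the log2 fold change was 0.00 ± 0.30 (SE) with a 95% interval from -0.67 to 0.67. Leaving out shScr replicate 1 gave 0.28, and leaving out shScr replicate 3 gave -0.19. The count ratio of *BIRC3* to *XIAP* ran from 0.262 in shScr replicate 3 to 0.626 in shScr replicate 1.

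**Figure D2:**
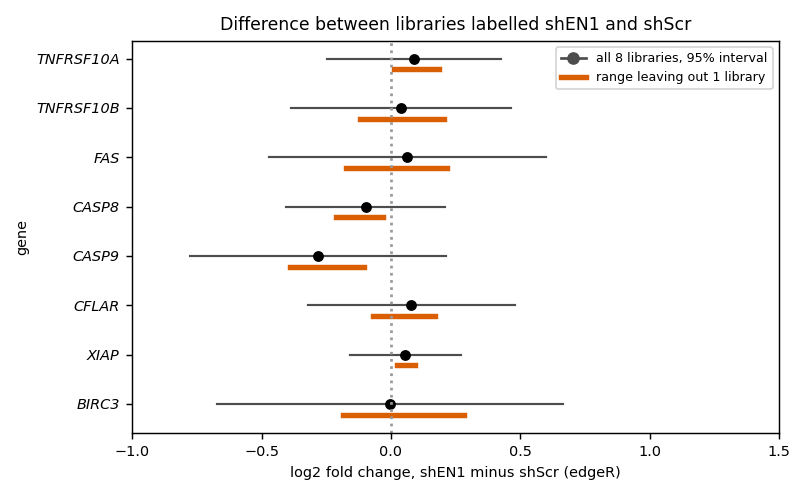
Log2 fold change of each gene, libraries labelled shEN1 minus libraries labelled shScr (horizontal axis, edgeR), with its 95% interval in grey and the range over the fits that leave out 1 library in orange. All 8 intervals span 0, from -0.16 to 0.27 for XIAP and from -0.67 to 0.67 for BIRC3.

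None of the 8 genes passed edgeR's test at an adjusted p below 0.05 over all genes tested, where 0 of 14333 genes (0%) were called, and each of the 8 adjusted p-values was 1.00. At an unadjusted p below 0.05 there were 0 of the 8 genes, beside 44 of all genes (0.307%). With no differences and well-scaled p-values, a share near 0.05 would be seen, so these p-values ran high. Without shScr replicates 3 and 4, shEN1 #1 replicate 1 and shEN1 #2 replicate 1, edgeR put 1512 of 14273 genes below 0.05, and 0 of the 8. The cause was not tested. The groups did not overlap for 0 of the 8, beside 60 of all genes (0.419%). By sign, 5 were higher and 3 lower in shEN1, with a median log2 fold change of 0.05, and the 3 other scalings tried made it 6 and 2 because *BIRC3*, at -0.0038, turned positive. Of all genes 7006 were higher and 7327 lower, with a median of 0.00. The intervals bound what these libraries could show: that of *XIAP* holds log2 differences from -0.16 to 0.27, whereas that of *BIRC3* holds any from -0.67 to 0.67. In bulk RNA, fewer cells with a transcript and less of it per cell cannot be told apart.

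By construct, 0 of the 8 genes passed in shEN1 #1 against shScr, 0 in shEN1 #2 against shScr and 0 in shEN1 #2 against shEN1 #1, in an edgeR fit of 3 groups, where 0% of all genes were called in each. Both constructs were compared with the same 4 shScr libraries. In shEN1 #1 the log2 fold changes of the 8 genes lay between -0.17, for *CASP9*, and 0.07, for *XIAP*. In shEN1 #2 they lay between -0.40, for *CASP9*, and 0.22, for *FAS*. Between the constructs the farthest values were 0.32 ± 0.34 (SE) for *FAS* and -0.22 ± 0.33 (SE) for *CASP9*, higher and lower in shEN1 #2, with an unadjusted p of 0.371 and 0.509 in edgeR (n = 2 each). The replicates of shEN1 #2 were 34.3 and 18.1 CPM for *FAS*, so the spread within that construct was wider than the difference between the constructs.

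Per kilobase the order of levels depended on which length was used. Divided by all exon bases of the gene, mean levels over the 8 libraries were 21.7 CPM per kb for *TNFRSF10B*, 8.25 for *XIAP*, 7.01 for *TNFRSF10A*, 6.48 for *FAS*, 6.05 for *CASP8*, 4.24 for *BIRC3*, 2.90 for *CFLAR* and 1.81 for *CASP9*. *TNFRSF10B* stood apart, at 16.4 to 28.7 CPM per kb, above the 7.58 to 8.74 of *XIAP*. Each other pair of neighbours in this order overlapped in range, for example *XIAP* with *TNFRSF10A* at 5.71 to 8.35 and *CFLAR* at 1.91 to 3.57 with *CASP9* at 1.17 to 2.69. Divided by the length of the MANE Select transcript, *CASP8* moved to 16.5 CPM per kb, below *TNFRSF10B* at 27.2 and above *XIAP* at 9.18. *CASP9* remained the lowest at 3.40, and *FAS* had no such transcript in the annotation used.

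**Figure D3:**
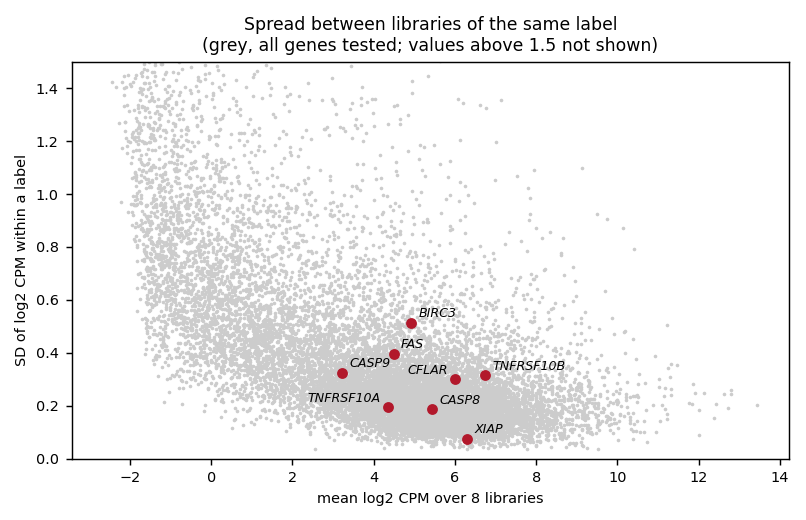
Mean log2 CPM over the 8 libraries (horizontal axis) against the SD of log2 CPM between libraries of the same label (vertical axis), with all genes tested in grey and the 8 genes in red. XIAP lies near the lower edge, with 1.07% of genes below its SD, and BIRC3 lies highest of the 8, with 77.8% of genes below its SD.

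Spread between replicates differed widely among the 8 genes. The SD of log2 CPM within a label was 0.0747 for *XIAP*, 0.186 for *CASP8*, 0.194 for *TNFRSF10A*, 0.301 for *CFLAR*, 0.315 for *TNFRSF10B*, 0.325 for *CASP9*, 0.396 for *FAS* and 0.513 for *BIRC3*. Their median was 0.308, beside 0.276 over all genes tested. Counting error was small in this spread, since the library with the fewest counts held 242 for *CASP9*, a counting error of 6.43%, and 2898 for *TNFRSF10B*, a counting error of 1.86%.

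For 7 of the 8 genes, the 2 highest or 2 lowest levels fell in pairs of libraries with different labels. The share of the spread that this makes up was not measured. These pairs were known from earlier results of these data, so the counts are a description with no test. *TNFRSF10B* and *FAS*, 2 of the 8 genes, had their 2 highest levels in shScr replicate 4 and shEN1 #2 replicate 1, a pattern of 18.9% of all genes tested. *CASP9* had its 2 lowest levels there, as did 19.2% of all genes. In shScr replicate 3 and shEN1 #1 replicate 1, *CASP8* had its 2 highest levels, as did 7.05% of all genes. *TNFRSF10A*, *BIRC3* and *CFLAR* had their 2 lowest levels in that pair, as did 6.83% of all genes. In all, 7 of the 8 genes had one of these 4 patterns, with *XIAP* the exception, beside 47.8% of all genes tested. The other pathway genes had them in 26 of 56, or 46.4%.

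**Figure D4:**
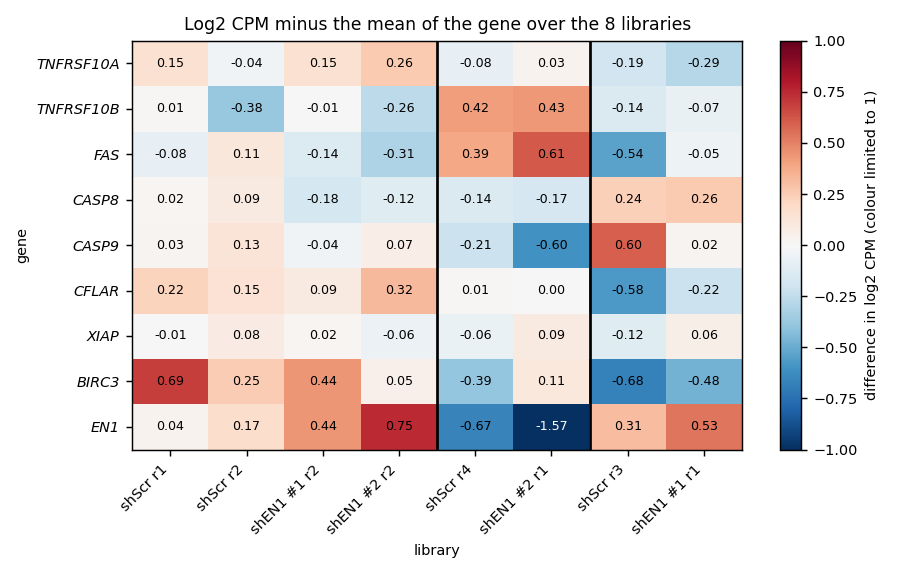
Log2 CPM of the 8 genes and EN1 in each library minus the mean of the gene over all libraries, as numbers and colours (red above, blue below). Vertical lines set off shScr r4 with shEN1 #2 r1, where FAS and TNFRSF10B are highest and EN1 is lowest, and shScr r3 with shEN1 #1 r1, where CASP8 is highest and BIRC3, CFLAR and TNFRSF10A are lowest.

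*EN1* moved with the first of these pairs, being lowest, at 2.51 and 1.35 CPM, in the libraries where *TNFRSF10B* and *FAS* were highest and *CASP9* was lowest. In the other pair *EN1* was at 4.94 and 5.77 CPM, within the range of the remaining 4 libraries. Whether the level of *EN1* has a part in either pattern was not tested, because libraries grouped by a measured level would not be groups of the study. Without both pairs, 2 libraries of each label remained, and the log2 fold changes were -0.24 for *FAS*, -0.24 for *BIRC3* and -0.06 for *XIAP*, with 0 of the 8 genes called.

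*BIRC3*, the most variable of the 8 genes, was compared with every gene tested by the root mean square difference of log2 CPM centred on each gene's own mean, over the 8 libraries. The nearest was *KICS2*, at 0.106, with 8.04, 6.31, 3.64 and 3.90 CPM in shScr, 3.89 and 6.41 CPM in shEN1 #1, and 5.82 and 6.18 CPM in shEN1 #2. *TMEM45B* followed at 0.167, with 60.0, 50.3, 30.99 and 37.7 CPM in shScr, 26.9 and 59.9 CPM in shEN1 #1, and 39.2 and 43.0 CPM in shEN1 #2. Like *BIRC3*, both were highest in shScr replicate 1 and low in shScr replicates 3 and 4 and in shEN1 #1 replicate 1. The next was the gene with Entrez number 100506847, at 0.172, which had no symbol here and stayed at or below 0.512 CPM.

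The rest of the pathway was described from 64 further genes in 11 lists, of which 56 were tested. Of these 56, 0 were called, 31 were higher and 25 lower in shEN1, and the median log2 fold change was 0.02. The other 8 did not pass the filter on low counts. They were the caspases *CASP5* and *CASP14*, the ligands *FASLG*, *TNF*, *LTA* and *TNFSF12*, and the IAP genes *BIRC7* and *NAIP*. *CASP5*, *FASLG*, *TNF* and *LTA* were at 0 counts in every library, so of 5 death ligands listed only *TNFSF10*, which encodes TRAIL, passed the filter.

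**Figure D5:**
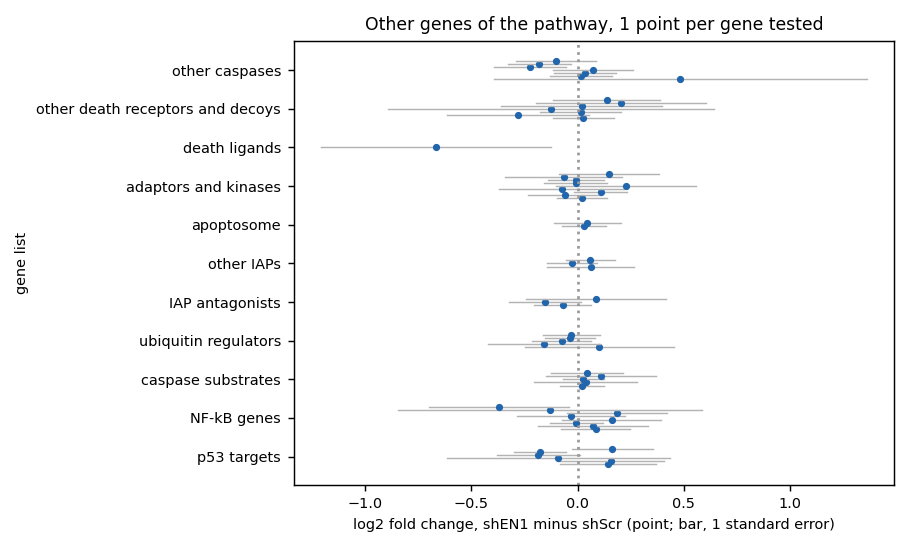
Log2 fold change of each of the 56 other pathway genes tested, libraries labelled shEN1 minus libraries labelled shScr (horizontal axis, edgeR), with bars of 1 standard error, by list. The point farthest to the left is TNFSF10 at -0.67 and the point farthest to the right is CASP1 at 0.48.

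*TNFSF10* was at 1.84, 9.25, 8.81 and 4.57 CPM in shScr, at 7.06 and 2.35 CPM in shEN1 #1 and at 1.96 and 4.06 CPM in shEN1 #2. Its lowest and highest levels were both under the label shScr, and its log2 fold change of -0.67 ± 0.54 (SE) had an edgeR adjusted p of 1.00. Among other receptors and decoys, 5 of 7 were higher and 2 lower, with 0 called. *TNFRSF11B*, a soluble decoy also named osteoprotegerin, ranged widest. It was at 37.6 and 31.1 CPM in shScr replicate 3 and shEN1 #1 replicate 1, at 4.16 and 3.35 CPM in shScr replicate 4 and shEN1 #2 replicate 1, and at 7.74 to 11.9 CPM in the other 4 libraries. The decoy thus set both pairs apart, with its highest levels where *TNFRSF10A* was lowest and its lowest levels where *TNFRSF10B* was highest.

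Among 9 other caspases, 7 were tested, 4 higher and 3 lower, and *CASP1* ranged widest but from only 2 to 34 counts per library. The 9 adaptors and kinases split into 4 higher and 5 lower. *CRADD*, an adaptor of caspase-2, ranged widest of them, from 2.53 CPM in shScr replicate 3 to 7.17 CPM in shScr replicate 2. Both apoptosome genes were slightly higher, with *CYCS*, which encodes cytochrome c, between 203 and 318 CPM. Of 5 caspase substrates all were higher, by at most 0.11 on the log2 scale, with 0 called and *ROCK1* from 46.7 to 116 CPM. *ROCK1* was lowest in shScr replicate 3 and shEN1 #1 replicate 1, as were *CFLAR* and *BIRC3*.

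Of 3 other IAP genes tested, 2 were higher and 1 lower. *BIRC2*, the paralog that encodes cIAP1, was at 90.4, 88.1, 62.6 and 103 CPM in shScr, at 96.8 and 70.6 CPM in shEN1 #1 and at 121 and 71.3 CPM in shEN1 #2. It was highest in shScr replicate 4 and shEN1 #2 replicate 1, unlike *BIRC3*. Of 3 IAP antagonists, 1 was higher and 2 lower, and *XAF1*, an XIAP-associated factor, ranged from 1.54 to 3.29 CPM. Of 5 ubiquitin regulators, 1 was higher and 4 lower. *CYLD*, a deubiquitinase of NF-κB signalling, was at 36.7 and 45.3 CPM in shScr replicate 4 and shEN1 #2 replicate 1 and at 16.8 to 20.5 CPM in the other 6 libraries.

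Genes of NF-κB signalling split into 4 higher and 4 lower, and *CXCL8*, the widest in range, had only 2 to 44 counts per library. *NFKBIA*, a direct NF-κB target named after its values were seen, was at 35.3, 19.8, 19.7 and 18.1 CPM in shScr, at 19.2 and 30.4 CPM in shEN1 #1 and at 16.5 and 24.8 CPM in shEN1 #2. Its highest levels were in shScr replicate 1 and shEN1 #1 replicate 2, the libraries with the most *BIRC3*. In the same list, also read after the values were seen, *NFKB1* and *NFKBIE* were highest in those libraries too. The highest levels of *NFKB2*, *RELA*, *RELB*, *CXCL8* and *ICAM1* were not both there. *ICAM1* had its second highest level, 2.21 CPM, in shEN1 #1 replicate 1, where *BIRC3* was low. Whether NF-κB has a part in the levels of *BIRC3* was not tested. Of 6 p53 targets, 3 were higher and 3 lower. *GDF15* was at 3.497 and 3.40 CPM in shScr replicate 4 and shEN1 #2 replicate 1 and at 11.3 to 18.9 CPM in the other 6. *FAS* and *TNFRSF10B* are themselves known p53 targets and were highest where *GDF15* was lowest. Other targets of the list, read after their values were seen, did not follow *GDF15*. *TP53I3* was highest in shScr replicate 4, at 23.8 CPM, and *ZMAT3* and *SESN1* in shEN1 #2 replicate 1, at 23.1 and 9.25 CPM. *CDKN1A* was at 47.7 and 49.7 CPM in that pair, within the range of the other libraries.

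In GRCh37, the build named hg19 elsewhere, the annotation places *CFLAR* at chr2:201980877-202041410 and *CASP8* at chr2:202098166-202226559, both on the plus strand. *CASP9* lies at chr1:15817327-15853029 on the minus strand, *FAS* at chr10:90750414-90775542, *XIAP* at chrX:122993562-123047822 and *BIRC3* at chr11:102188215-102210134, all 3 on the plus strand. *TNFRSF10B* at chr8:22877646-22926544 and *TNFRSF10A* at chr8:23047965-23082615 are neighbours on the minus strand. Exons of another gene overlap those of 7 of the 8, *XIAP* being the exception, by between 1.68% of exon bases for *BIRC3* and 25.7% for *FAS* for any 1 overlapping gene.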

How the data were processed

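RNA-seq of SUIT2 was measured in 8 libraries grouped by their titles. The authors deposited whole-number counts of reads per gene, made with HISAT2 and featureCounts; their methods name hg19 for human samples, the submitters' processing notes list mm9, and versions, annotation and strand setting are not given in the sources used here. The 25702 Entrez identifiers are of human genes, and 23696 had a symbol in a RefSeq table. Positions and lengths are from GENCODE v44 lifted to GRCh37. Library totals were 33423590 to 37810604 counts. Counting error is given as 1 over the square root of the count.

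Genes were filtered with filterByExpr (minimum count 10), scaled by TMM and tested with edgeR 4.0.16 (glmQLFit robust, glmQLFTest) in R 4.3.3, without a block, with Benjamini-Hochberg adjustment over all 14333 genes tested and a threshold of 0.05. Both constructs formed 1 arm of 4 libraries; a fit of 3 groups gave each construct. SEs are the log2 fold change over the square root of F, and 95% intervals use the fit's prior plus residual degrees of freedom. Spread used log2 CPM with a prior count of 2. Alternatives were 3 other scalings, DESeq2 1.42.0, limma-voom (limma 3.58.1), 2 other filters, the replicate number as a block, and libraries left out. The code was tested on simulated data. The genes named were the 8 genes, *EN1*, the 3 genes most like the most variable of the 8, and the gene of widest range in each pathway list; others are marked. The 8 genes, the lists and the library pairs were chosen with earlier results of these data known.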

Additional observations from a re-analysis of the deposited data

Results flagged for a closer look

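*CASP8* was at 52.2 CPM in shEN1 #1 replicate 1, far from the other 3 libraries labelled shEN1, which lay between 38.4 and 40.0 CPM. It was the only one of 16 groups of 4 values (8 genes, 2 labels) with such a gap. Chance gives such a gap in about 1 in 20 groups, so 1 among 16 is not unusual. The group holds both constructs. In shScr replicate 3, the nearest library to this one over all genes, *CASP8* was at 51.3 CPM.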

How the results depend on the processing

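In all 19 alternatives 0 of the 8 genes and 0 of the other pathway genes were called, and *CASP8* and *CASP9* kept their sign. The log2 fold change of *BIRC3*, near 0, turned positive without a filter (0.0035), with limma-voom (0.063), DESeq2 (0.0016) or its size factors alone (0.0017), and with scaling by the upper quartile (0.0017) or by totals alone (0.010). Leaving out 1 library gave -0.19 to 0.28 for *BIRC3*, -0.12 to 0.21 for *TNFRSF10B*, -0.18 to 0.22 for *FAS* and -0.068 to 0.17 for *CFLAR*. *FAS* was -0.024 without shScr replicate 4 and shEN1 #2 replicate 1, -0.040 without shScr replicate 3 and shEN1 #1 replicate 1, and -0.24 without all 4, which also gave -0.056 for *XIAP*. Same-numbered libraries deviated from their group means with correlations of -0.33 to 0.44. Libraries with different numbers were not compared in this way, so whether the number pairs them cannot be told. With the replicate number as a block, *TNFRSF10A* was -0.017, *XIAP* -0.0090, *CFLAR* -0.14, *BIRC3* -0.44 (the value that moved most) and *TNFRSF10B* 0.22. Replicate numbers 3 and 4 occur only in shScr. In the block fit those libraries therefore add nothing to the difference between labels, which rests on shScr replicates 1 and 2 and the shEN1 libraries. Over all genes, edgeR called 0, and 0 to 1 with 1 library left out. DESeq2 called 2 (*VAMP7* and a gene without a symbol). *VAMP7* was the 1 gene called with the replicate block, without shScr replicate 4, without the first pair and without all 4. The cause of these changes was not tested. With 4 libraries a label and *EN1* not lower in shEN1, the comparison limits differences between labels, not effects of *EN1* loss.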

Other observations

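Among genes outside the rule for named genes, *MDM2*, the p53 target that encodes the ligase of p53 and named after its values were seen, separated both library pairs from the rest. It was at 74.6 and 90.2 CPM in shScr replicate 3 and shEN1 #1 replicate 1, at 74.2 and 85.5 CPM in shScr replicate 4 and shEN1 #2 replicate 1, and at 46.5 to 52.1 CPM in the other 4 libraries. Its log2 fold change between labels was 0.16 ± 0.25 (SE, n = 4 against 4, edgeR adjusted p = 1.00).

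Decoy receptors differed in where they were high. *TNFRSF10D* was highest, at 28.97 and 33.4 CPM, in the libraries with the most *TNFRSF10B*, and lay between 19.1 and 23.8 CPM in the other 6. *TNFRSF10C*, another decoy for TRAIL, was lowest in those libraries, at 1.60 and 1.499 CPM, and lay between 1.79 and 3.36 CPM in the other 6. Its counts there were 60 and 59, beside 63 to 65 in shScr replicate 1 and shEN1 #1. With a counting error of 13.0%, that order is uncertain. *TNFRSF6B*, a soluble decoy for the Fas ligand, was lowest in shScr replicate 4 and shEN1 #2 replicate 1, at 401 and 383 CPM. It reached 818 CPM in shEN1 #1 replicate 2. These genes were also named after their values were seen.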
